A study of Mus musculus with 4 samples.

Results

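Lower glycolysis is described here through 10 genes: Gpi1, Aldoa, Aldoc, Tpi1, Gapdh, Pgk1, Pgam1, Eno1, Eno2 and Pkm. They were chosen by symbol, and all 10 have a row among the 20296 genes of the authors' deposited table, under the Ensembl identifiers ENSMUSG00000036427.4 (Gpi1), ENSMUSG00000030695.12 (Aldoa), ENSMUSG00000017390.14 (Aldoc), ENSMUSG00000023456.13 (Tpi1), ENSMUSG00000057666.17 (Gapdh), ENSMUSG00000062070.11 (Pgk1), ENSMUSG00000011752.6 (Pgam1), ENSMUSG00000063524.12 (Eno1), ENSMUSG00000004267.15 (Eno2), ENSMUSG00000032294.15 (Pkm). Both cell states of the mouse were compared by RNA sequencing. Naive embryonic stem cells (nESC) were grown in 2i/LIF medium, that is with 2 kinase inhibitors and the cytokine LIF. Epiblast-like cells (EpiLSC), a model of the epiblast just after implantation, were the same lines after 3 days in N2B27 medium with activin A at 20 ng/ml and bFGF at 12 ng/ml. Each state had 2 samples, 1 of the line R1 and 1 of the line E14 (E14TG2a), neither of which carried a stated genetic change or drug treatment beyond the medium. State and medium therefore cannot be told apart, and nothing measures the spread between repeat cultures of a line.

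Glycolysis breaks glucose down to pyruvate in the cytosol. Glucose-6-phosphate isomerase (Gpi1) acts between the hexokinase and phosphofructokinase steps, aldolase (Aldoa, Aldoc) then splits the sugar into triose phosphates, which triosephosphate isomerase (Tpi1) interconverts. Glyceraldehyde-3-phosphate dehydrogenase (Gapdh), phosphoglycerate kinase (Pgk1), phosphoglycerate mutase (Pgam1), enolase (Eno1, Eno2) and pyruvate kinase (Pkm) carry the trioses to pyruvate and yield ATP. Aldoc and Eno2 are the isozymes typical of nervous tissue. The pathway matters in this setting because the series title ties the noncoding RNA Lncenc1 to glycolysis in naive cells.

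None of the 10 enzymes passed the authors' test of a difference between the states. Of the 10, 0 had an adjusted p under 0.05 by the DESeq2 Wald test with Benjamini-Hochberg adjustment, as the authors' deposited table gives it, and 0 had one under 0.05 before adjustment. Across all 16361 genes with an adjusted p, 13.9% were called by the same threshold, and among the 4949 of them with a mean normalized count of 1000 or more the share was 6.41%. The count of 0 is therefore read as near the background of abundant genes. The median log2 fold change of the 10 was 0.15, where positive means higher in EpiLSC, against 0.02 for all tested genes. Ignoring sign, the median was 0.29 for the enzymes and 0.39 for tested genes whose mean was at least 1000. Without Gpi1, which had -0.85, the fold changes of the other 9 lay between -0.34 (Gapdh) and 0.39 (Eno2) on the log2 scale. The smallest change called in any gene was 1.68 on the log2 scale.

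The table gives 1 mean over the 4 libraries and 1 fold change per gene, so no value of a single sample and no SD can be printed, and whether the samples of the states overlap was not analysed here. Its header does not name the direction. It was read from Fgf5, Otx2 and Dnmt3b against Zfp42, Klf4 and Esrrb. With that direction, all 6 naive markers (Zfp42, Klf4, Esrrb, Tfcp2l1, Nr0b1, Prdm14) were called with negative values from -10.24 to -6.22 in the authors' deposited table, and all 5 epiblast markers (Fgf5, Otx2, Dnmt3b, Pou3f1, Zic2) with positive values from 2.46 to 8.40. Markers of other cells differed between the states in both directions. The 6 fibroblast or feeder genes had implied sums of 14.8 for nESC and 234 for EpiLSC. Of the 4 tested, Thy1 and Dcn rose, and Col1a2 (2.69, SE 1.22) and Col1a1 (1.55, SE 1.8) were positive without passing, while Lum and Postn had means of 1.16 and 1.02 in the authors' deposited table. Sums for the 6 genes of primitive endoderm were 92.7 and 190.0. There the authors' deposited table has Foxa2 risen by 6.60 and Pdgfra, not called, at -2.38 (SE 1.03). The 6 trophectoderm genes summed to 981 and 1977, mostly Tfap2c in nESC (671) and Eomes in EpiLSC (1917). Eomes rose by 3.18 and Cdx2 (-5.55) and Tfap2c (-5.82) fell in the authors' deposited table. The 4 neuroectoderm genes summed to 1377 and 9027, mostly Nes, which rose by 3.19 in the authors' deposited table. The others were not called: Sox1 had -1.98 (SE 1.29), Tubb3 0.29 (SE 1.11) and Pax6 2.93 (SE 1.46, mean 11.2) in the authors' deposited table. The mesoderm genes summed to 533 and 536, where Mixl1 rose by 2.85, Kdr had -4.06 and was called, and T, most of the sum, had 0.02 in the authors' deposited table. Whether cells of these types were present, and what part they had in the enzyme values, was not tested. In bulk RNA, fewer cells of a type and less RNA per cell cannot be told apart.

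At the isomerase step, Gpi1 had the largest difference of the 10. The level that the authors' deposited mean and fold change imply was 7181 normalized counts for nESC and 3981 for EpiLSC. That is -0.85 on the log2 scale, with an SE of 0.85 and an adjusted p of 0.738 by DESeq2. The 95% interval ran from 0.174-fold to 1.77-fold of the nESC level. Gpi1 also sits upstream of phosphofructokinase, apart from the other 9.

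The aldolase isozymes lay far apart in level, and neither was called. Aldoa, the main form of muscle and of most dividing cells, stood at 16858 for nESC and 14172 for EpiLSC, from a mean of 15515 in the authors' deposited table. It had -0.25 on the log2 scale (SE 0.94, adjusted p 0.976, DESeq2) in the authors' deposited table. Aldoc stood at 353 for nESC and 393 for EpiLSC, which is 0.15 on the log2 scale (SE 0.80, adjusted p 0.982, DESeq2) in the authors' deposited table. Per kilobase of exon, the mean of Aldoa was 46.6 times that of Aldoc, and the ratio of implied levels was 53.5 in nESC and 40.4 in EpiLSC. Per kilobase of the longest coding transcript the means were 10016 for Aldoa and 134 for Aldoc, a wider gap. Aldoa was the higher of this pair in both states. The ratios carry no error, because the deposited table gives no covariance between genes.

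Tpi1 feeds both trioses into the later stage of the pathway. It stood at 5474 for nESC and 6714 for EpiLSC, or 0.29 on the log2 scale (SE 0.72, adjusted p 0.952, DESeq2) in the authors' deposited table. The 95% interval was 0.460-fold to 3.27-fold.

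Gapdh, which oxidises the triose and is widely used as a reference gene, had a mean of 35520 in the authors' deposited table. It stood at 39680 for nESC and 31361 for EpiLSC, or -0.34 on the log2 scale (SE 0.96, adjusted p 0.966, DESeq2) in the authors' deposited table. Pgk1, which makes the first ATP of the pathway, had the other sign, with 20790 for nESC and 26113 for EpiLSC, or 0.33 on the log2 scale (SE 0.71, adjusted p 0.942, DESeq2) in the authors' deposited table. Neither direction was distinguishable from no change.

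Pgam1, the mutase, had the smallest standard error of the 10. It stood at 12398 for nESC and 15060 for EpiLSC, and the authors' deposited table gave 0.28 on the log2 scale (SE 0.63, adjusted p 0.946, DESeq2). Its interval of 0.514-fold to 2.87-fold was the narrowest of the group.

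The enolases also lay far apart in level, and neither was called. Eno1, the form found in most tissues, stood at 17471 for nESC and 19192 for EpiLSC (0.14 on the log2 scale, SE 0.71, adjusted p 0.982, DESeq2, authors' deposited table). Eno2, the neuronal form, stood at 107 and 139.7 (0.39, SE 0.79, adjusted p 0.936, DESeq2, authors' deposited table). Per kilobase of exon Eno1 stood 143.0 times above Eno2 in nESC and 120.2 times above it in EpiLSC. By the longest coding transcript, the means of 9044 and 44.1 per kilobase lay further apart.

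Pkm, the final step, makes ATP and pyruvate. It stood at 31128 for nESC and 34499 for EpiLSC, or 0.15 on the log2 scale (SE 0.98, adjusted p 0.984, DESeq2) in the authors' deposited table. This was the largest standard error among the 10 and gave an interval from 0.292-fold to 4.20-fold. The gene makes the M1 and M2 forms of pyruvate kinase by exclusive use of a pair of exons, and counts per gene do not separate them.

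**Figure D1:**
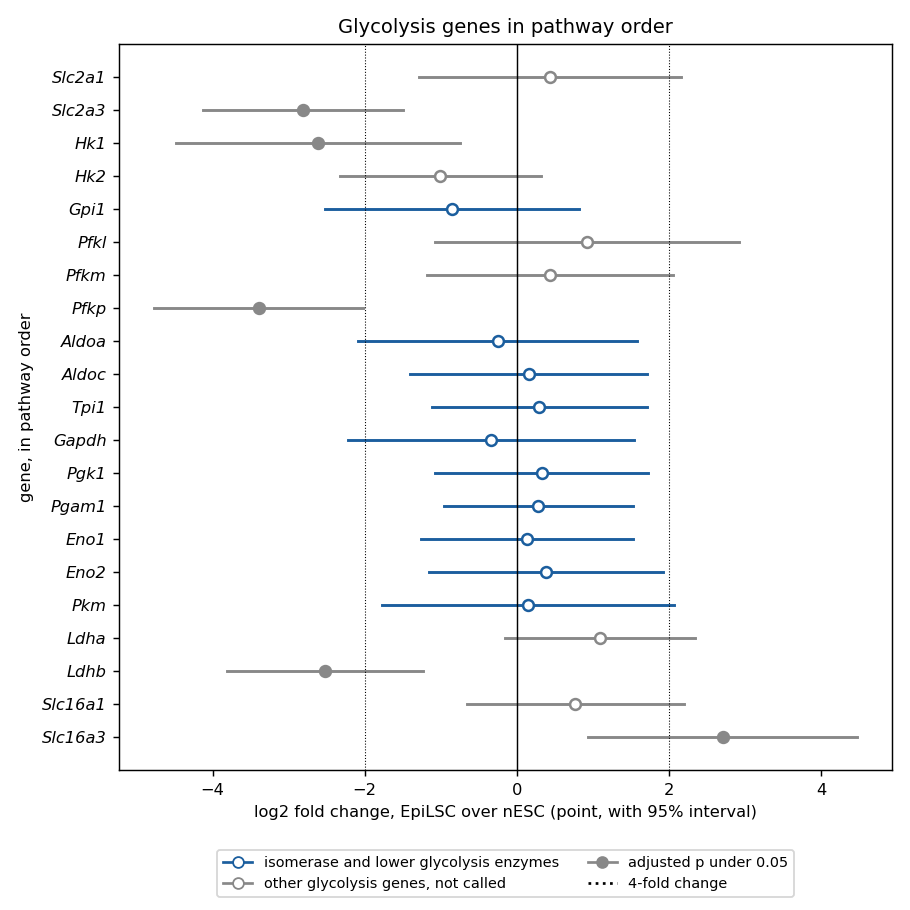
Log2 fold changes (horizontal axis, EpiLSC over nESC, points with 95% intervals) of glycolysis genes in pathway order, with the 10 enzymes in blue, called genes as filled points and dotted lines at a 4-fold change. All 10 blue points are open and lie between -0.85 (Gpi1) and 0.39 (Eno2), whereas Slc2a3, Hk1, Pfkp and Ldhb are filled on the left and Slc16a3 on the right.

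Because a missed threshold does not show that a gene stayed the same, each change was also tested for being smaller than 4-fold either way. Pgam1 (adjusted p 0.0328), Eno1 (0.0332), Tpi1 (0.0409), Pgk1 (0.0417) and Aldoc (0.0430) passed this test, computed from the authors' deposited fold changes and standard errors with Benjamini-Hochberg adjustment over all tested genes. Eno2 (0.0612), Pkm (0.0777), Aldoa (0.080), Gapdh (0.0976) and Gpi1 (0.168) did not pass. The count of 5 of 10 stands beside 27.8% of all tested genes and 55.2% of those with a mean of 1000 or more, where 4 of the 8 enzymes of that abundance passed. The share is therefore near the background of abundant genes. The count depended on the setting. With no filter on low means only Pgam1 and Eno1 passed, beside 17.2% of all genes. With t quantiles on 2 degrees of freedom 0 passed, and for a 2-fold bound 0 passed, in both cases as for all 16361 tested genes. All 10 passed for an 8-fold bound, beside 63.4% of all tested genes.

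The means of the 10 enzymes summed to 151531, or 0.543% of the sum over all genes of the authors' deposited table, and Gapdh and Pkm held 45.1% of that. The implied sums were 151439 in nESC and 151624 in EpiLSC, a ratio of 1.00 that carries no error. Scaled to exon length, the mean normalized count per kilobase was 10451 for Pgk1, 8594 for Gapdh, 6927 for Pgam1, 6561 for Pkm, 5330 for Aldoa, 3408 for Eno1, 2213 for Tpi1 and 865 for Gpi1. Aldoc (114) and Eno2 (26.2) were far below. The order among the first 6 depended on the length used: per kilobase of the longest protein-coding transcript, Gapdh (25014) led Pkm (13492) and Pgk1 (12850). Under all 3 lengths tried, Tpi1, Gpi1, Aldoc and Eno2 were the lowest, in that order. Differences in level between neighbouring genes were not tested, because the table gives no error for them.

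**Figure D2:**
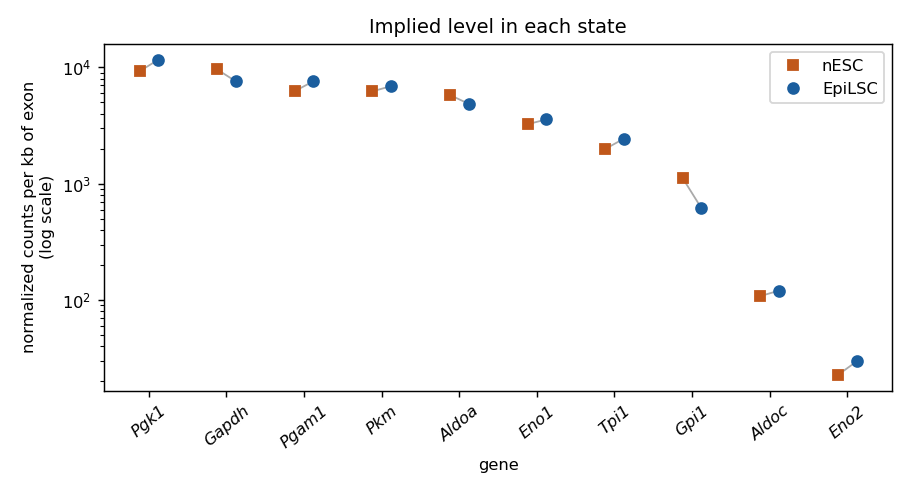
Implied level of each enzyme in nESC (squares) and EpiLSC (circles), as normalized counts per kilobase of exon on a log axis, in order of the mean over both states. The pair of symbols lies close together for every gene, with the widest gap for Gpi1 (1113 and 617). Symbols run from 22.7 (Eno2 in nESC) to 11637 (Pgk1 in EpiLSC).

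The enzymes also differed in precision. Standard errors of Pkm (0.98), Gapdh (0.96), Aldoa (0.94) and Gpi1 (0.85) in the authors' deposited table exceeded those of 97.4%, 97.1%, 96.4% and 93.8% of the abundant genes, those with a mean of at least 1000. The other 4 abundant enzymes, Tpi1, Pgk1, Eno1 and Pgam1, stood at percentiles from 22.5 to 72.2. Read as a negative binomial model with equal library weights, these standard errors imply a coefficient of variation between libraries of 68.0% for Pkm, 66.4% for Gapdh, 64.9% for Aldoa and 59.1% for Gpi1, against 43.9% for Pgam1. The spread includes the difference between R1 and E14, unless the authors' fit had a term for the line, which the labels do not state. It is a model value, since the authors' tool shares information between genes. The GC content of the longest coding transcript was 57.7% for Pkm, 56.6% for Gapdh, 56.9% for Aldoa and 53.5% for Gpi1. It was 57.4% for Eno1, whose standard error was 0.71 in the authors' deposited table. Across 5 equal bins of abundant genes by GC, from lowest to highest, the median standard error was 0.71, 0.68, 0.65, 0.64 and 0.71, with an upper quartile of 0.84 in the highest. Over 4882 abundant genes, which share the 4 libraries, Spearman's rho of standard error with GC was -0.07, as a description. A rank correlation does not capture the fall and rise of the median across the bins. Whether GC content bears on the standard errors of the enzymes was not tested.

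**Figure D3:**
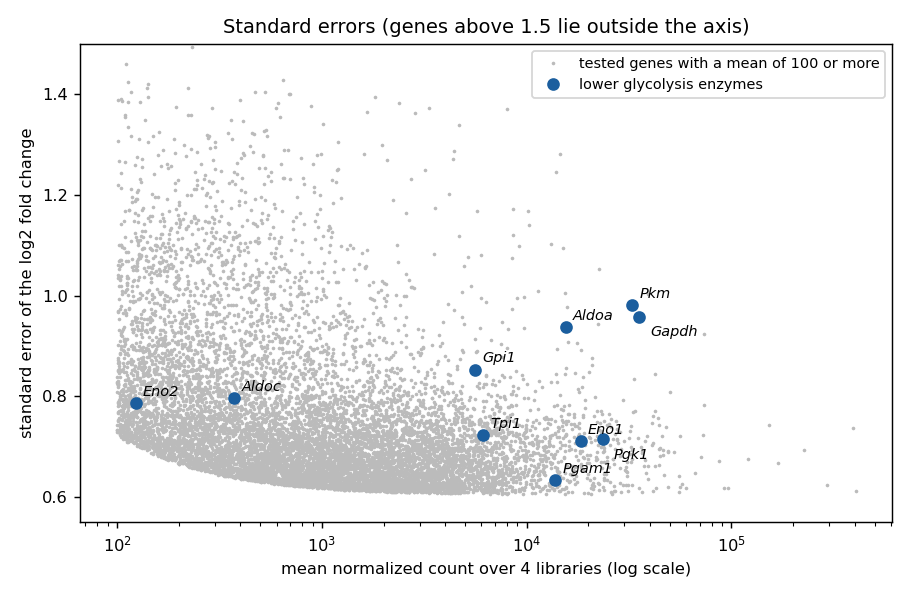
Standard error of the log2 fold change (vertical axis) against the mean normalized count (horizontal log axis) for tested genes whose mean is at least 100 (grey) and the 10 enzymes (blue, named). Pkm, Gapdh, Aldoa and Gpi1 lie above the dense part of the cloud at 0.98, 0.96, 0.94 and 0.85, and Pgam1 is the lowest of the 10 at 0.63.

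Several of these genes have near-identical copies in the mouse genome, which bears on how their reads could be counted. Protein-coding transcripts of each enzyme in the annotation GENCODE M21 were broken into all words of 50 bases, and each word was looked up in all other annotated genes on both strands. Of the words of Pgk1, 68.0% also occurred in another gene, of Gapdh 58.4%, of Eno1 49.5%, of Pgam1 41.5%, of Gpi1 24.5% and of Pkm 23.7%. For Aldoa the share was 8.46% and for Tpi1 6.83%, while it was 0.197% for Eno2 and 0.0% for Aldoc. Among 13 other reference genes it reached 41.1% (Rpl13a) and was 0.0% for B2m, Gusb, Hprt, Sdha and Tfrc. With words of 100 bases, Pgk1 (67.0%), Gapdh (53.1%), Pgam1 (39.7%) and Eno1 (39.5%) kept large shared parts and the other 6 stood at no more than 7.52%. Neither the read length nor the handling of reads with several matches is given in the sources used here.

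The coding words found in the most other genes are shown for 2 enzymes, because a 50-base read from such a stretch matches several genes. The Gapdh word (coding bases 415 to 464) occurs in 84 other annotated genes and the Pgam1 word (451 to 500) in 3. They were read from the GENCODE M21 transcripts and are written 5′ to 3′.
Gapdh: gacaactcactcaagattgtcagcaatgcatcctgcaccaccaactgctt
Pgam1: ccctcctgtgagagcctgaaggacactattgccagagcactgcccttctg

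Copies with a row of their own are given beside their enzymes. Pgk1-rs7, a processed pseudogene all of whose words occur in Pgk1, had a mean of 4152 and a log2 fold change of 0.46 (SE 0.75) in the authors' deposited table, beside 0.33 for Pgk1. Eno1b, an enolase gene that shares 76.4% of its words with Eno1, had a mean of 6805 and 0.19 (SE 0.82), beside 0.14 for Eno1, in the authors' deposited table. Gm3839, which shares 47.1% of its words with Gapdh, had a mean of 1328 and -0.34 (SE 0.82), beside -0.34 for Gapdh, in the authors' deposited table. Of the 89 genes that share at least 100 words with Gapdh, 2 had a row, the other being Gm47854 (mean 7.35 in the authors' deposited table). Gm1840, a copy of Gpi1, had a mean of 5.33 and -0.92 (SE 2.15) in the authors' deposited table. None of these was called. Reads of an enzyme and of its copy cannot be told apart within shared words, so the levels of Pgk1, Gapdh, Eno1 and Pgam1 are uncertain in both directions.

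**Figure D4:**
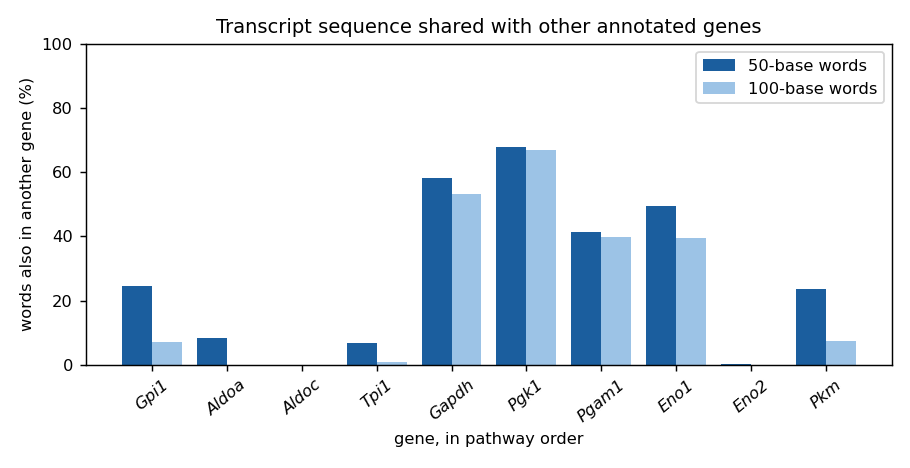
Share of each enzyme's transcript words (vertical axis, percent) that also occur in another annotated gene, for words of 50 bases (dark) and 100 bases (light), in pathway order. Gapdh, Pgk1, Pgam1 and Eno1 keep 39.5% to 67.0% at 100 bases, and at that length the bars of Aldoa, Aldoc and Eno2 are at 0.

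In the same annotation several enzymes overlap a neighbour. Exons of Aldoa overlapped the opposite-strand gene Fam57b by 25 bases, those of Tpi1 overlapped Spsb2 by 34 bases and those of Gapdh overlapped Iffo1 by 68 bases. Fam57b rose by 3.71 (SE 1.31, adjusted p 0.0358, DESeq2) from a mean of 38.5 in the authors' deposited table. Gpi1 shared 741 bases, 11.5% of its exons, with the opposite-strand noncoding gene Gm26762, whose mean was 0.404 in the authors' deposited table. Pkm shared 767 bases, 15.3% of its exons, with Gm49759 on its own strand, which had no row. The libraries were strand-specific per the labels, but no source used here gives the strand setting of the counting.

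The remaining isozymes of these steps were low or not called. Of 11 listed genes, 9 had a row, 6 an adjusted p, and 0 were called or had p under 0.05 before adjustment (DESeq2 Wald test). Among all 16361 tested genes 13.9% were called and 3558 had p under 0.05 before adjustment. With 6 genes tested, the 0 is not read as a difference from other genes. Bpgm, which makes the oxygen-release regulator 2,3-bisphosphoglycerate, had 0.71 (SE 0.64), the muscle enolase Eno3 0.54 (SE 0.82) and the sperm enolase Eno4 -1.35 (SE 1.07) on the log2 scale, at means of 426, 143 and 22.6 in the authors' deposited table. Pgam2 of muscle (mean 9.23) had -1.98 (SE 1.82) and Pklr, the pyruvate kinase of liver and red cells (mean 5.80), 0.97 (SE 1.72) in the authors' deposited table. Aldoart2 and Pgk2, forms of the testis, had means of 1.55 and 0.680 in the authors' deposited table and no adjusted p. Aldoart1 and Gapdhs were not analysed here.

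Calls were found in the lists before and after these steps. Among 14 tested genes of upper glycolysis, 3 fell and 0 rose: the transporter gene Slc2a3 (-2.81, SE 0.67), the hexokinase gene Hk1 (-2.61, SE 0.95) and the phosphofructokinase gene Pfkp (-3.40, SE 0.70) in the authors' deposited table. The count was 2 with no filter and 2 among genes with a mean of at least 100, where Hk1 (adjusted p 0.045 by DESeq2) was no longer called. Of 8 lactate and pyruvate genes, the lactate dehydrogenase gene Ldhb fell by 2.52 (SE 0.66) and Slc16a3, which encodes a lactate exporter, rose by 2.71 (SE 0.90), both in the authors' deposited table. These counts of 3 of 14 and 2 of 8 stand beside 13.9% called among all tested genes. Whether these differ from the lower enzymes was not tested, because the table gives no covariance between genes. In gluconeogenesis, which reverses these steps, 1 of 5 tested genes rose and 1 fell, the fructose-bisphosphatase genes Fbp1 (2.60, SE 0.92, mean 38.1) and Fbp2 (-5.36, SE 1.53, mean 22.0) in the authors' deposited table. The low means of both limit these sizes.

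Pathways that branch off glycolysis, above or within these steps, had no call. The counts were 0 of 5 for the serine branch, 0 of 4 for glycerol phosphate and 0 of 8 for the pentose phosphate pathway. Each had 0 under 0.05 before adjustment (DESeq2 Wald test, authors' deposited table). The serine list holds the genes of synthesis from phosphoglycerate together with Shmt1 and Shmt2, which act on serine once made. With 13.9% of all tested genes called and lists this short, the counts are not read as a difference from other genes. By largest Wald score these lists were led by Shmt1 (-0.999, SE 0.61) and Phgdh (1.05, SE 0.91), by Gk (-0.30, SE 0.68) and Gpd2 (0.27, SE 0.62), and by Pgd (-0.90, SE 0.67) and Pgls (1.04, SE 1.13) in the authors' deposited table.

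RNA-binding proteins listed for Pkm splicing or as Lncenc1 partners were not called. Of 7 genes 0 passed, beside 13.9% of all tested genes and 6.41% of those with a mean of 1000 or more. With a list this short, the count is not read as a difference from other genes. Before adjustment 3558 of all 16361 tested genes had p under 0.05, and so did 1 of the 7 (DESeq2 Wald test). That gene was Ptbp2, the neuronal paralogue of Ptbp1, at 1.46 (SE 0.65, adjusted p 0.138, DESeq2) in the authors' deposited table. Ptbp1 had -0.05 (SE 0.82), Ptbp3 -0.78 (SE 0.66), Hnrnpa1 0.37 (SE 0.64), Hnrnpa2b1 0.55 (SE 0.76), Srsf3 0.49 (SE 0.79) and Hnrnpk 0.48 (SE 0.71) in the authors' deposited table.

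As reference genes, the enzymes were set beside 13 others in common use. None of the 13 was called, beside 13.9% of all tested genes and 6.41% of those with a mean of 1000 or more. Before adjustment 0 had p under 0.05 (DESeq2 Wald test), beside 3558 of all 16361 tested genes. With a list this short, these counts are not read as a difference from other genes. Their fold changes ran from -0.52 (Tfrc, SE 0.86) to 0.63 (Gusb, SE 0.67) in the authors' deposited table. Actb (0.32, SE 0.75), Tbp (0.27, SE 0.67), B2m (0.24, SE 0.67), and Rplp0 (0.09, SE 0.84) lay between, as did Rpl13a (-0.35, SE 0.67) and Sdha (-0.51, SE 0.62), in the authors' deposited table. Ywhaz had 0.03 (SE 0.64) and Ppia -0.08 (SE 0.66), and Hprt (0.31) had an SE of 2.80, in the authors' deposited table. In the test for a change below 4-fold, 9 of the 13 passed, beside 5 of the 10 enzymes, and Gapdh did not. The share was 27.8% of all tested genes and 55.2% of those with a mean of 1000 or more. The median standard error was 0.67 for the 13 and 0.79 for the enzymes. The difference between the sets was not tested.

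The promoters were searched for motifs that the choice of genes did not use. RefSeq windows of 300 bases on GRCm38.p6, from 250 bases before to 50 after a start, gave 16 windows for the 10 genes. The core of the hypoxia response element, ACGTG or GCGTG on either strand, was in 11 of the 16 windows (68.8%) and in 43.8% of all 32851 windows. It was found for Aldoa, Aldoc, Eno1, Gapdh, Pgam1, Pgk1 and Pkm. The GC box GGGCGG was in 62.5% of the enzyme windows and 35.7% of all, AAGGTCA, part of the site of estrogen-related receptors, in 12.5% (Eno1, Tpi1) and 4.72%, and TATAAA in 6.25% and 13.6%. The E-box CACGTG, which contains ACGTG, was in 0 of 16 and in 7.15% of all. Windows of 1 gene overlap, and the enzyme windows were richer in GC (median 60.0% against 52.4% in the 250 bases before the start). A match is a description and not a bound site.

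Bases before the start are shown for 3 enzymes of different steps. The Pgk1 window has 2 cores there, the Pgam1 window 3 and the most upstream of the Eno1 windows 1. The Gapdh window and each of the other Eno1 windows, which are not shown, have 2. Capitals mark ACGTG or GCGTG on either strand. Coordinates are GRCm38.p6, plus strand: Pgk1 chrX:106186850-106187099, Pgam1 chr19:41911621-41911870 and Eno1 chr4:150236458-150236707.
Pgk1: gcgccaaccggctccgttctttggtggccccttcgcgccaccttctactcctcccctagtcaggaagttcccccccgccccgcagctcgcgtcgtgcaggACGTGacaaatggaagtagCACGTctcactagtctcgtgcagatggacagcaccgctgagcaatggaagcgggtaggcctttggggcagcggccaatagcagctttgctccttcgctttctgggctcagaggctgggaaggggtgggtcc
Pgam1: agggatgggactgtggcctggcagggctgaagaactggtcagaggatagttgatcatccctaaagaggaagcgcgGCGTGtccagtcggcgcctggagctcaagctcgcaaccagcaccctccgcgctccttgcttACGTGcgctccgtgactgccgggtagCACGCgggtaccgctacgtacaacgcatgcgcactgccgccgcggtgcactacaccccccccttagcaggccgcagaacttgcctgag
Eno1: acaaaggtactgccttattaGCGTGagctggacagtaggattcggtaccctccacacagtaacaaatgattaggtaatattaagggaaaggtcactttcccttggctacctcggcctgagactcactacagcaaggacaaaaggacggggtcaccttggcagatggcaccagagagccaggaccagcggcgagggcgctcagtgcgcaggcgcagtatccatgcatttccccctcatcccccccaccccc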

How the data were processed

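RNA was sequenced from 2 nESC and 2 EpiLSC samples. The submitters' processing notes name TopHat2, HTSeq, DESeq2 1.8.2 and the build mm9. The 1 file is the authors' comparison table. The first measure deposited by the authors is a signal, the DESeq2 base mean, per the file headers. The log2 fold change, its standard error, the Wald score, the p-value and the adjusted p were deposited by the authors, per the file headers. Recomputed scores differed by at most 5.9e-14. Total counts per library are not in the table, so precision is that of the standard errors.

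Gene IDs were matched without version to GENCODE M21 names (20167 of 20296), and all 10 enzymes matched. The members and gene lists were chosen with earlier results of these data known. From a mean m and log2 fold change L, the nESC level was computed as 2m divided by 1 plus the fold change (2 to the power L), assuming unshrunken fold changes and equal library weights, and the EpiLSC level as the rest of 2m. The test for a change below 4-fold took the larger of 2 one-sided normal p-values against +2 and -2 on the log2 scale. Calculations used Python 3.11.15 with numpy 2.4.6, pandas 2.3.3 and scipy 1.17.1, and were tested on simulated data. Named genes were the enzymes, all listed isozymes with a row, reference genes and splicing factors, copies of the enzymes with a mean of 100 or more or a name that marks a copy, and in each other list the called genes (up to 4 in each direction) or, with none, the 2 with the largest Wald score. Gm1840, Gm47854, Gm49759, Fam57b, Spsb2, Iffo1 and Gm26762 were added after their values were seen. Alternatives were no filter, a mean of 100 or more, a 2-fold null, t quantiles, centring, other bounds and other lengths. Words of 100 bases and the longest coding transcript were added after seeing the data. Shared words came from GENCODE M21 transcripts and promoters from RefSeq, and protein sequences were not used here. Some items of the lists and 1 shared word are not reported here.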

Additional observations from a re-analysis of the deposited data

How the results depend on the processing

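No paired analysis was possible because the table holds no value per sample, and for the same reason leaving out a sample or blocking on the cell line was not run. The p-values rest on these 4 samples only, with a spread that the authors' tool estimates partly from other genes. The count of called enzymes was 0 under every alternative listed here. No filter on the mean called 10.6% of the genes tested, a mean of 100 or more 11.7% and a test against a 2-fold change 6.91%. Centring on the median of abundant genes (mean of at least 1000) called 13.9%, and an adjusted p under 0.1 called 16.6%. With t quantiles on 2 degrees of freedom 0 of 16361 genes were called at all, so that setting says nothing about the enzymes. Nor could a change of filter or threshold have called an enzyme, since their smallest p before adjustment was 0.318 (Gpi1, DESeq2 Wald test). The 2-fold null could not either, since all 10 changes were under 2-fold. Centring moved fold changes by 0.0039 and reversed no direction. The number of enzymes bounded within 4-fold was 5. It became 6 with a mean of 100 or more (beside 53.7% of the genes tested) and stayed 5 after centring (27.7%). With no filter it was 2 (17.2%), and for an 8-fold bound 10 (63.4%). It was 0 with t quantiles and 0 for a 2-fold bound. There 0 of 16361 genes passed, so those settings say nothing about the enzymes. These moves follow from the number of genes adjusted over, the reference distribution and the bound itself. Restricting to a mean of 100 or more left 0 calls in the gluconeogenesis list and in the fibroblast, primitive endoderm and mesoderm markers, whose called genes have lower means, and with no filter the hypoxia targets had 0 calls. Levels per kilobase, their order among the 6 highest enzymes, and shares of common words changed with the length used. No fold change of an enzyme changed sign.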

Other observations

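Genes that respond to low oxygen were measured beside the enzymes, several of which are textbook targets of the same pathway. Of 14 tested hypoxia targets outside glycolysis, 1 rose and 0 fell, beside 13.9% of all tested genes called. Before adjustment 5 of the 14 had p under 0.05, as did 3558 of all 16361 tested genes (DESeq2 Wald test). The one that rose was Egln3, a prolyl hydroxylase of the oxygen-sensing system, at 1.99 (SE 0.72, adjusted p 0.0432, DESeq2) in the authors' deposited table. That call ended with no filter on low means. The mitophagy receptor gene Bnip3 (1.62, SE 0.82), the stress gene Ddit4 (1.84, SE 0.73), Egln1 (1.402, SE 0.63) and the peptide hormone gene Adm (4.28, SE 1.82) did not pass after adjustment in the authors' deposited table. The low mean of Adm (10.7) limits the size of its change. Positive values were seen in 12 of the 14 and in 8349 of all 16361 tested genes, with a median log2 fold change of 0.68, beside 7 of 10 and 0.15 for the enzymes and 0.02 for all tested genes. The difference between the lists was not tested.

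The processed pseudogene Pgk1-rs7 had a mean of 4152 in the authors' deposited table although all of its 50-base words occur in Pgk1. Reads assigned to it therefore had no exact stretch of that length that tells it from Pgk1 in this annotation. How such reads came to be assigned was not tested.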
